A study of Mus musculus with 225 samples.

Results

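Polycomb group proteins keep developmental genes silent, and the *Hox* clusters are among their best known targets. Polycomb repressive complex 2 (PRC2) methylates lysine 27 of histone H3 through Ezh2 or its paralogue Ezh1, which need Eed and Suz12 to be active, and Jarid2 helps to recruit the complex. Polycomb repressive complex 1 (PRC1) ubiquitinates histone H2A through Rnf2 (Ring1b) or Ring1, with a Pcgf protein such as Bmi1 as partner, while a Cbx protein such as Cbx2 binds the methylated histone. In the limb bud, these complexes cover the part of the *HoxD* cluster that is silent in a given segment.

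The transcripts of 9 genes of these complexes were followed in single cells of the mouse forelimb: *Eed*, *Suz12*, *Ezh2*, *Ezh1* and *Jarid2* of PRC2, and *Rnf2*, *Ring1*, *Bmi1* and *Cbx2* of PRC1. They were chosen by name among the 23165 genes of the count table, and all 9 were also among the 10948 genes of the normalized table. The cells came from the autopod (the future hand) and the zeugopod (the future forearm) of E12.5 embryos of a mixed C57Bl6CBAF1 background, heterozygous for *Hoxd11::GFP*, in which tau-GFP was knocked into *Hoxd11*, so that 1 of the alleles of this gene carries GFP in every cell. Only cells among the brightest for GFP were sorted, without any treatment, and captured on the Fluidigm C1 device. Transcripts of *Hoxd11* had at least 5 reads in 88.2% of the autopod and 79.7% of the zeugopod cells retained. Run NXT0072 held autopod cells only (59 retained of 69), NXT0142 zeugopod cells only (58 of 60), and NXT0143 both (17 of 27 autopod and 65 of 69 zeugopod cells).

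The 76 retained autopod cells had between 187344 and 9437447 reads on genes (median 2830024) and a median of 3684 genes with a read, and the zeugopod cells had between 186271 and 6801278 reads (median 3233736) and a median of 3995 genes. *Hoxd13*, the gene of the future digits, had at least 5 reads in 65 autopod cells and in 1 zeugopod cell, although in NXT0143 it was found in 11 of 17 autopod cells against 54 of 59 in NXT0072. Of 5 limb mesenchyme markers (*Prrx1*, *Prrx2*, *Twist1*, *Msx1* and *Tbx5*), 3 or more were found in 55.3% of autopod and 19.5% of zeugopod cells. The authors list *Prrx2*, *Twist1* and *Msx1* among the genes most enriched in autopod cells, so these shares do not measure mesenchyme alone. Of 5 chondrogenic markers, 3 or more were found in 46.1% and 30.9%, while no cell reached this for muscle, epithelium or endothelium. Of 3 tendon markers, 2 were found in 17 zeugopod cells and no autopod cell. Cells were pooled before capture and no label ties a cell to an embryo, so that each tissue is 1 sample. Shares therefore carry exact binomial 95% intervals (Clopper-Pearson) and sums of reads exact Poisson intervals, both of which cover counting error only, and no test between tissues was made.

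The upstream sequences of the genes differed in their make-up. RefSeq entries (GRCm38.p6) were matched for 8 of the 9 genes, *Cbx2* being the exception, and the 250 bases before each start were searched on both strands for the CCAAT box (spelled so), the GC box (GGGCGG) and 4 forms of the E2F motif. These forms were TTTCCCGC and TTTCGCGC, as well as TTTGCCGC and TTTGGCGC. Every window of the 8 genes had a ratio of observed to expected CpG of at least 0.652, a level of 0.6 being reached by 34% of all 32851 promoters. The CCAAT box was found for 3 genes (33.8% of all promoters), the GC box for 5 (32.7%) and an E2F form for *Suz12* alone (1.86%). Shown here are both histone methyltransferase genes, which were found in very different shares of the cells, and *Suz12*, with every match to these motifs in capitals. For *Ezh2*, the stretch is limited to the bases that no annotated exon covers, on the minus strand of chr6:47595059-47595183. The *Ezh1* stretch is on the minus strand of chr11:101226464-101226713, and the *Suz12* stretch on the plus strand of chr11:79992856-79993105, both outside of annotated exons.
Ezh2: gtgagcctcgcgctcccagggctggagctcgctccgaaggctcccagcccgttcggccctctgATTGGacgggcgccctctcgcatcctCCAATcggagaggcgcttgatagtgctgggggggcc
Ezh1: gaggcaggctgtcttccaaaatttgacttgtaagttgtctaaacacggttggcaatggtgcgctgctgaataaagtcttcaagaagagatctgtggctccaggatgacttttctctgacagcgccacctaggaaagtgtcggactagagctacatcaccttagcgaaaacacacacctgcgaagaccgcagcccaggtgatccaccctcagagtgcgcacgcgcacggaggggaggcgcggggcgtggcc
Suz12: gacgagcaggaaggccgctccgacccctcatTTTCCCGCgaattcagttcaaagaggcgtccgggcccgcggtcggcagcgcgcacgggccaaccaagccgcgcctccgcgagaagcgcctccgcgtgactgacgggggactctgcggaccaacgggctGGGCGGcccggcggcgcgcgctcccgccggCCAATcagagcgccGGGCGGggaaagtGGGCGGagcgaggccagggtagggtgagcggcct
The *Ezh2* window held 3 CCAAT boxes, 2 of them in the stretch shown, while the *Ezh1* window held no match to any of these motifs, which says nothing about the factors that may bind there.

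The core subunits of PRC2 were detected in unequal shares of the cells. *Ezh2* (chromosome 6, 47530139 to 47595341, minus strand) had at least 5 reads in 56 of 76 autopod cells, or 73.7% (interval 62.3 to 83.1%), and in 72 zeugopod cells, or 58.5% (49.3 to 67.3%). Of the 9 genes, it was the one found in most autopod cells. *Suz12* (chromosome 11, 79993106 to 80034123, plus strand) was found in 46.1% (34.5 to 57.9%) of autopod and 48.8% (39.7 to 58%) of zeugopod cells. *Eed* (chromosome 7, 89954654 to 89980983, minus strand), which reads the methylated histone, was found in 40.8% (29.6 to 52.7%) and 38.2% (29.6 to 47.4%). The intervals of *Suz12* and *Eed* thus overlapped between tissues almost entirely. *Ezh1* (chromosome 11, 101191115 to 101226463, minus strand), the paralogue known from non-dividing cells, was found in 3 autopod cells (3.95%, 0.822 to 11.1%) and 14 zeugopod cells (11.4%, 6.36 to 18.4%). In the autopod cells of NXT0143 it was in 0 of 17 (interval up to 19.5%), although 5 of these cells had at least 1 read of it.

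Of the PRC1 subunits, *Rnf2* was the one found in most cells of either tissue. *Rnf2* (chromosome 1, 151458004 to 151500955, minus strand) was found in 42.1% (30.9 to 54%) of autopod and 43.9% (35 to 53.1%) of zeugopod cells. Its exons overlap those of *Trmt1l* on the other strand, and since the kit does not mark the strand, reads of the shared bases cannot be told apart. *Eed*, *Suz12* and *Ezh2* have exons that overlap non-coding genes of the other strand, which are not rows of the count table. *Ring1* (chromosome 17, 34020792 to 34024680, minus strand), the paralogue of *Rnf2*, was found in 9.21% (3.78 to 18.1%) and 8.94% (4.55 to 15.4%). *Bmi1* (chromosome 2, 18677018 to 18686629, plus strand) was found in 14.5% (7.45 to 24.4%) of autopod and 6.5% (2.85 to 12.4%) of zeugopod cells. *Cbx2* (chromosome 11, 119022962 to 119031270, plus strand) was found in 23.7% (14.7 to 34.8%) and 20.3% (13.6 to 28.5%). For each of these 4 genes the intervals of both tissues overlapped.

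**Figure D1:**
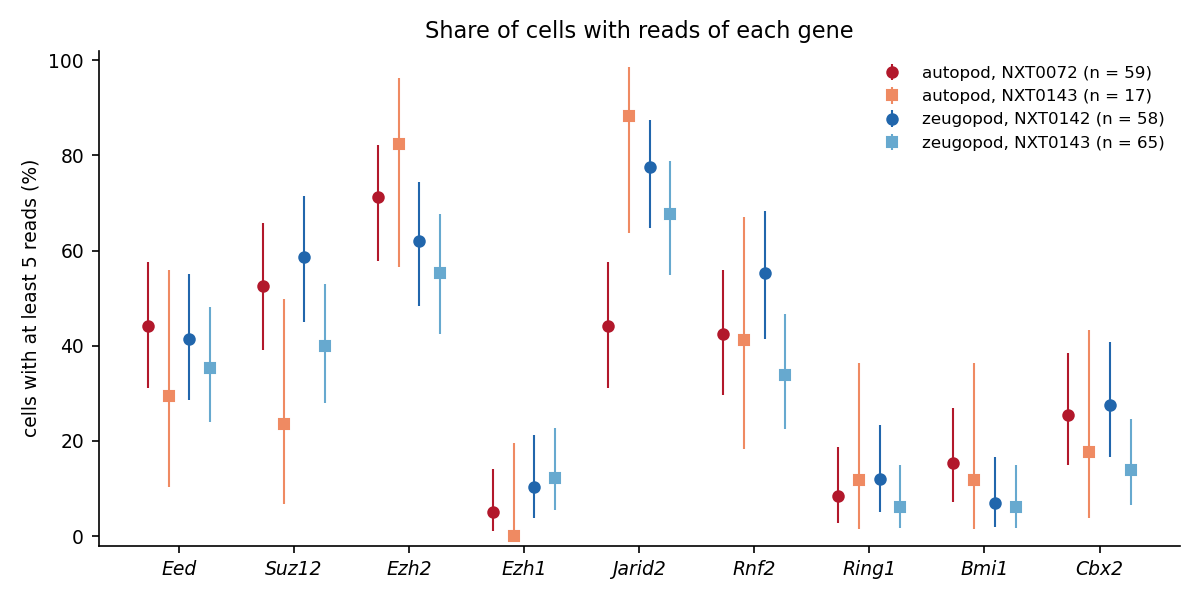
Share of retained cells with at least 5 reads of each of the 9 genes (y axis, percent) in the 4 sets of cells given by tissue and run, with exact binomial 95% intervals. *Jarid2* reached 44.1% in the autopod cells of NXT0072 against 67.7 to 88.2% in the other sets, while *Ezh1*, *Ring1* and *Bmi1* stayed under 16% in every set.

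*Jarid2* (chromosome 13, 44729474 to 44921643, plus strand) differed between the runs of each tissue, and in opposite directions. Over all cells it was found in 53.9% (42.1 to 65.5%) of autopod and 72.4% (63.6 to 80%) of zeugopod cells. The autopod cells of NXT0072 had it in 26 of 59 cells, or 44.1% (31.2 to 57.6%), whereas those of NXT0143 had it in 15 of 17, or 88.2% (63.6 to 98.5%). In the zeugopod, the shares were 77.6% (64.7 to 87.5%) in NXT0142 and 67.7% (54.9 to 78.8%) in NXT0143. Hence 1 set of autopod cells lay below and the other above both sets of zeugopod cells. When each cell was thinned to 500000 reads, which left out 4 autopod and 4 zeugopod cells, the same shares were 33.9%, 93.8%, 76.8% and 58.7%. Other genes differed between runs as well. *Suz12* was found in 52.5% and 23.5% of the autopod cells of NXT0072 and NXT0143, and in 58.6% and 40% of the zeugopod cells of NXT0142 and NXT0143. *Rnf2* was found in 55.2% and 33.8% of these zeugopod cells, a wider gap than that of *Jarid2* in this tissue.

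The thinning lowered the shares of most genes. *Ezh2* was then found with at least 5 reads in 66.7% of 72 autopod cells and 51.3% of the zeugopod cells. *Suz12* came to 26.4% and 36.1%, *Eed* to 34.7% and 31.9%, and *Rnf2* to 34.7% and 37.8%. *Cbx2* came to 19.4% and 12.6%, *Bmi1* to 12.5% and 5.88%, *Ring1* to 9.72% and 5.88%, and *Ezh1* to 1.39% and 8.4%. At 1 read without thinning, *Ezh2* was found in 84.2% of autopod and 74% of zeugopod cells, and *Ezh1* in 15.8% and 19.5%, so that part of the cells without *Ezh1* at 5 reads did contain single reads of it.

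Levels were compared between genes with the normalized values, after subtraction of the value that the table gives to a count of 0 (the floor). These values are per kilobase. The authors describe them as corrected with spike-ins, but their scaling did not follow the spike-in totals and could not be checked. In autopod cells, the mean was highest for *Rnf2* (337), *Ezh2* (310) and *Eed* (286), and lower for *Jarid2* (94.3), *Suz12* (62.4) and *Cbx2* (50.4). *Bmi1* (12.6), *Ring1* (9.17) and *Ezh1* (0.488) came last. In zeugopod cells, *Jarid2* (164), *Rnf2* (159) and *Ezh2* (157) had nearly the same mean, followed by *Eed* (84.9), *Suz12* (31.7), *Cbx2* (14.7), *Ezh1* (13.3), *Bmi1* (7.35) and *Ring1* (3.66). These means rested on few cells, since the median over cells was 0 for *Eed*, *Ezh1*, *Ring1*, *Bmi1* and *Cbx2* in both tissues. For *Rnf2*, the median was 0.251 in both tissues, while its highest autopod cell was at 5265. For *Suz12*, the median was 0.209 in the autopod and 0.418 in the zeugopod. For *Ezh2*, by contrast, the lowest autopod cell was at the floor, the median at 47.5 and the highest at 2748, against 5.46 and 2514 for the median and the highest zeugopod cell. For *Jarid2*, the median and the highest value were 0.924 and 1474 in the autopod and 39.4 and 1027 in the zeugopod. Between neighbours in either order, the range over cells overlapped throughout.

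A cell that did contain a gene contained it at a widely varying level. Among the cells with at least 5 reads, *Ezh2* ranged from 0.497 to 2748 in the autopod (median 134) and from 0.497 to 2514 in the zeugopod (median 125.95), so that the medians were close although the shares of cells differed. *Jarid2* had medians of 86.3 and 116.76, *Eed* of 83.2 and 89.7, and *Suz12* of 15.1 and 22.7. *Rnf2* had a median of 61.9 in autopod cells and 199 in zeugopod cells, and reached 5265 and 2064. *Cbx2* had medians of 88.3 and 24.6 in 18 and 25 cells. *Ezh1* had a median of 30.8 in its 14 zeugopod cells and values of 2.28, 4.96 and 21.2 in its 3 autopod cells.

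**Figure D2:**
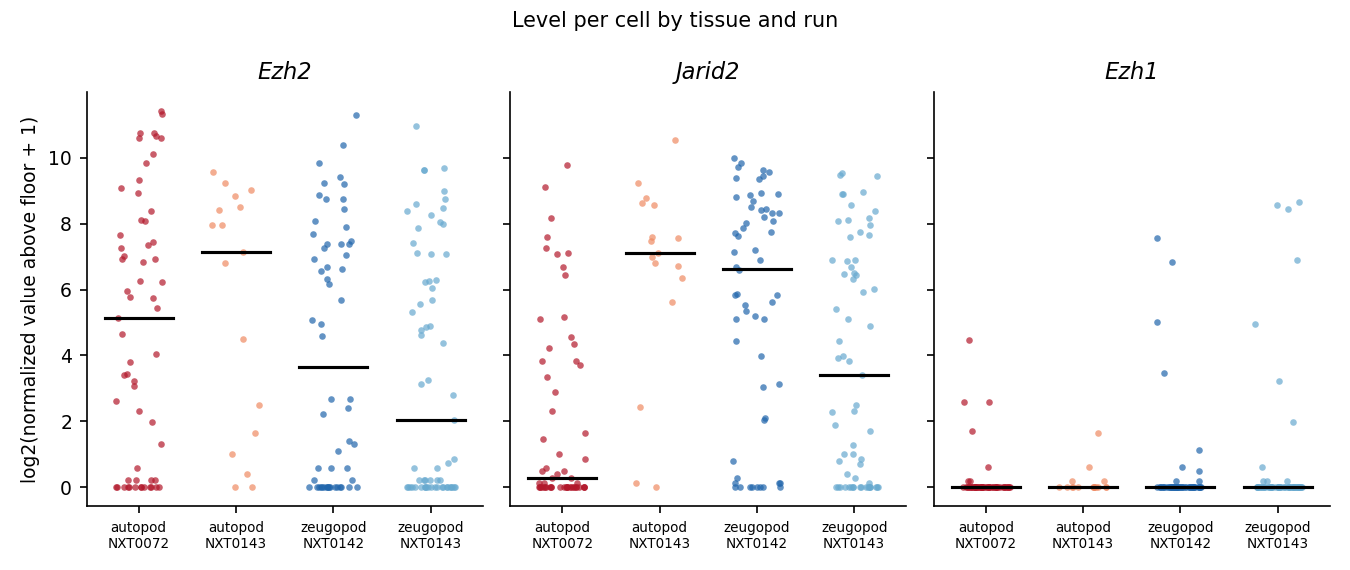
Level of *Ezh2*, *Jarid2* and *Ezh1* in each retained cell (points) by tissue and run, as log2 of the normalized value above the floor plus 1, with the median as a line. *Jarid2* had medians of 0.205 and 136 in the autopod cells of NXT0072 and NXT0143 before the log, and *Ezh1* lay above the floor in 11 autopod and 20 zeugopod cells.

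Summed over cells, the reads of several genes came largely from 1 cell. *Cbx2* had 113.6 CPM (counts scaled to a common total, interval 112.27 to 114.95) in the autopod and 18.5 (18.1 to 19) in the zeugopod, but 83.3% of its autopod reads were in 1 cell, without which it had 19.4. *Ezh1* had 1.24 CPM (1.1 to 1.38) in the autopod and 36.3 (35.8 to 36.9) in the zeugopod, and 0.252 and 25.1 without the highest cell of each. *Eed* had 137 (136 to 139) and 42.2 CPM (41.6 to 42.8), with 36.6% of the autopod reads in 1 cell and 88.9 CPM without it. Single cells thus weighed heavily on the difference between tissues for *Cbx2*, while *Ezh1* remained lower in the autopod without them. *Ezh2* had 390 CPM (388 to 393) in the autopod and 271 (269 to 272) in the zeugopod, or 327 and 245 without the highest cells. *Rnf2* had 249 and 205 CPM, or 172 and 171 without them, and thus hardly differed between tissues then. For the remaining genes, *Suz12* had 70.8 and 40 CPM, *Bmi1* 10.7 and 8.29, and *Ring1* 6.79 and 4.11. *Jarid2* had 185 CPM in the autopod against 460 in the zeugopod and depended least on the highest cell, with 9.82% and 6.51% of its reads there and 169 and 435 CPM without it. It ranged from 81.5 (80.2 to 82.7) in the autopod cells of NXT0072 to 673 (665 to 680) in those of NXT0143.

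The difference between tissues was then measured for each gene as the mean log2(normalized value + 1) of the autopod minus that of the zeugopod. Of the 9 genes, *Ezh2* was higher by 1.15 (means 5.0 and 3.85) and *Jarid2* differed by -1.54 (3.11 and 4.65), while the others lay between -0.36 (*Ezh1*) and 0.51 (*Cbx2*). A difference of at least 1 was reached by 1 of the 9 genes upward and 1 downward, against 6.06% and 13.4% of the 4898 genes with at least 5 reads in 25% of the cells of either tissue. The members that passed this filter were *Eed*, *Suz12*, *Ezh2*, *Jarid2* and *Rnf2*. The median difference was 0.17 over the 9 genes, -0.17 over the 5 that passed the filter and -0.12 over all genes tested, which had passed it too.

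Because NXT0072 and NXT0142 each held 1 tissue, the difference was also taken by run. Within NXT0143, *Ezh2* was higher in the autopod by 2.00 (5.55 and 3.55), and *Jarid2* by 2.70 (6.52 and 3.82). Between the autopod cells of NXT0072 and the zeugopod cells of NXT0142, *Ezh2* was higher by 0.66 (4.84 and 4.18), whereas *Jarid2* differed by -3.46 (2.13 and 5.59). *Ezh2* thus kept its direction in both comparisons and *Jarid2* turned. The background moved as well: within NXT0143, 18.4% of the genes were higher and 9.21% lower by at least 1, and between NXT0072 and NXT0142 6.64% were higher and 24.3% lower, with medians of 0.18 and -0.34. Relative to these medians, *Ezh2* was higher by 1.82 and 1.0, and *Jarid2* differed by 2.52 and -3.12. *Cbx2* (0.33 and 0.57) and *Ring1* (0.40 and 0.26) were slightly above the median gene in both comparisons, and *Eed* (-0.46 and 0.85) changed sides. With log2(CPM + 1) in place of the normalized values, *Ezh2* was higher by 1.03 and *Jarid2* differed by -2.09, the median gene being at -0.29.

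**Figure D3:**
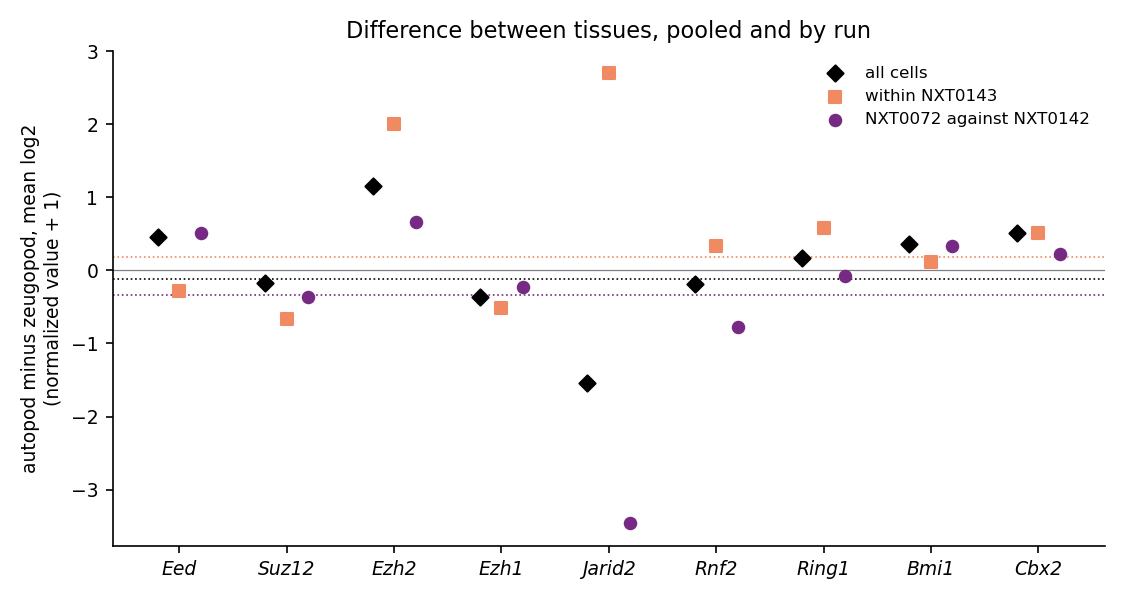
Autopod minus zeugopod difference in mean log2(normalized value + 1) for each of the 9 genes, over all cells, within NXT0143 and between NXT0072 and NXT0142, with the median of 4898 genes as a dotted line of the same colour. *Ezh2* was above 0 in all 3 comparisons (1.15, 2.00 and 0.66), and *Jarid2* was on both sides (-1.54, 2.70 and -3.46).

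The runs could be compared within a tissue. Between the autopod cells of NXT0143 and those of NXT0072, *Jarid2* was higher by 4.39 in the former, a difference that 13 of the 4898 genes reached or passed, itself included, and by 5.53 on the log2(CPM + 1) scale. Of all genes, 22.2% were higher and 11.8% lower by at least 1 in this comparison, and of the members also *Eed* and *Suz12* passed it, with -1.18 and -1.17. In the zeugopod cells of NXT0143 against those of NXT0142, *Jarid2* differed by -1.77 and *Rnf2* by -1.16, where 1.10% of genes were higher and 15.1% lower. Limb mesenchyme markers moved with the runs too: 3 or more of 5 were found in 62.7% of the autopod cells of NXT0072, 29.4% of those of NXT0143, 31% of the zeugopod cells of NXT0142 and 9.23% of those of NXT0143. Their summed level ranged from 0 to 6188, 117.43 to 6453, 4.25 to 4684 and 0 to 6258 CPM in these sets, with *Msx1* at 0 cells in the last of them. The part of the cell make-up and of the run in the values of *Jarid2* was not tested.

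For the number of *Hoxd* genes on, a gene counted where its normalized value reached 5 and 5% of the value of the top *Hoxd* gene in the cell. It ranged from 0 to 4 in the autopod, where 3, 23, 27, 14 and 9 cells had 0, 1, 2, 3 and 4 genes on, and from 0 to 5 in the zeugopod. From 1 to 4 *Hoxd* genes on, autopod cells also had more genes of any kind: the median number of genes detected was 2800 in cells with 1, 3540 with 2, 4051 with 3 and 5557 with 4. The 3 cells with 0 on did not continue this order, with a median of 3243 genes and *Ezh2* in all 3 of them. In the classes from 1 to 4, *Ezh2* was found in 65.2% (42.7 to 83.6%), 66.7% (46 to 83.5%), 78.6% (49.2 to 95.3%) and 100% (66.4 to 100%) of cells. *Cbx2* was found in 8.7% (1.07 to 28%), 25.9% (11.1 to 46.3%), 35.7% (12.8 to 64.9%) and 44.4% (13.7 to 78.8%) of the same cells. *Suz12* was similar in the classes with 1, 2 and 3 on (43.5%, 40.7% and 35.7%) and was in 8 of the 9 cells with 4 *Hoxd* genes on, but in 4 of these 9 after thinning.

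Over the 76 autopod cells, the plain rank correlation with this number was 0.33 for *Cbx2*, 0.23 for *Ezh2* and 0.20 for *Jarid2*, with a median of 0.19 for the 9 genes. These values were those of any gene, since the median over 4028 genes was 0.18 and 45.6% of them reached 0.2. Given the number of genes detected, the correlation was 0.13 for *Cbx2*, -0.05 for *Ezh2* and -0.06 for *Jarid2*. In this setting, the only value past 0.2 in either direction was that of *Ezh1*, at -0.21. It rested on the 11 cells in which the gene was above the floor. It compared with 4.15% of genes at or above 0.2 and 3.75% at or below -0.2, and was -0.04 in NXT0072 alone and -0.58 in the 17 cells of NXT0143. The remaining genes lay between -0.06 and 0.11. With *Hoxd* genes counted at 5 reads, *Cbx2* had 0.24, *Rnf2* 0.20 and *Ezh1* -0.23. After thinning, *Cbx2* had 0.22, *Ezh2* 0.17 and *Ezh1* -0.15. No share over all genes was taken in these settings.

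In the zeugopod cells, where the number of genes detected was nearly the same in all classes (medians of 3900 to 4171), accounting for it made little difference. The plain correlation reached 0.2 in 1.79% of all genes and in none of the 9. Given genes detected, the 9 values ranged from -0.18 (*Ezh2*) to 0.11 (*Eed*), and again none passed 0.2 in either direction, against 2.00% of genes upward and 1.72% downward. *Ezh2* was found in 60% (26.2 to 87.8%), 66.7% (50.5 to 80.4%) and 64.3% (48 to 78.4%) of the cells with 0, 1 and 2 *Hoxd* genes on, and in 37.5% (15.2 to 64.6%) and 38.5% (13.9 to 68.4%) of those with 3 and with 4 or 5. The intervals overlapped. Its correlation was -0.15 in NXT0142 and -0.16 in NXT0143. *Jarid2*, at 0.01, was in 66.7 to 90% of the cells of each class. Over all genes the 5th and 95th percentiles were -0.16 and 0.16, and *Ezh2* alone of the 9 lay outside of them. The cells are not replicates and no test was made, so no relation is read from values of this size.

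**Figure D4:**
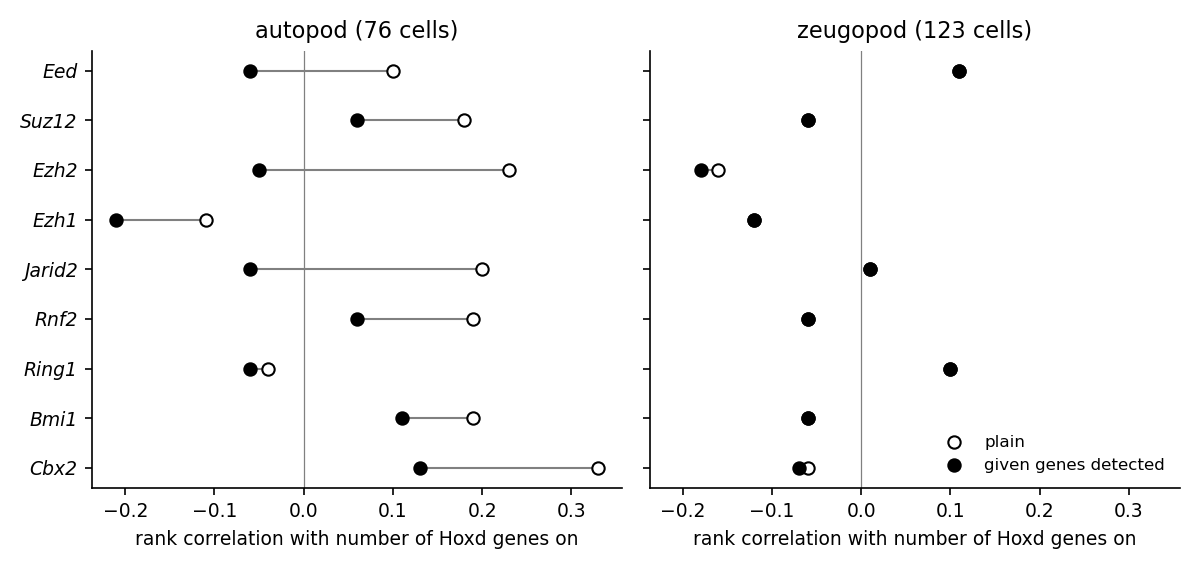
Rank correlation between each of the 9 genes and the count of active *Hoxd* genes, plain (open) and given the number of genes detected per cell (filled), over the autopod cells (left) and the zeugopod cells (right). In the autopod, the median moved from 0.19 to -0.05, and in the zeugopod it was -0.06 for both.

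The number of members found in a cell depended on the same quantity. The median cell had 3 of the 9 genes at 5 reads in both tissues, with a range of 0 to 7, and 11 autopod and 22 zeugopod cells had 5 or more. The rank correlation of this number with the genes detected was 0.67 over the autopod cells and 0.38 over the zeugopod cells. Of the single genes, *Ezh2* (0.53), *Jarid2* (0.50) and *Cbx2* (0.46) followed the genes detected most closely in the autopod, and *Eed* and *Ezh2* (both 0.33) in the zeugopod. After thinning, the median was 2 genes per cell and the correlations were 0.56 and 0.41.

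Few cells held reads of a whole complex. *Eed*, *Suz12* and 1 or both methyltransferases were found together in 13 autopod cells (17.1%, 9.43 to 27.5%) and 19 zeugopod cells (15.4%, 9.56 to 23.1%), and in 5.56% and 10.1% after thinning. None of these 4 genes was found in 5 autopod cells (6.58%, 2.17 to 14.7%) and 20 zeugopod cells (16.3%, 10.2 to 24%). *Rnf2* or *Ring1* was found in 50% and 48.8% of the cells, and together with both *Bmi1* and *Cbx2* in 4 autopod cells and 1 zeugopod cell. Since a cell without 5 reads of a gene may still contain its transcript, these counts describe detection.

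The paralogues of each pair were then counted in the same cells. *Ezh2* and *Ezh1* were both found in 1 autopod cell, where the product of their shares within each run gives 2.14 cells, and in 8 zeugopod cells, where it gives 8.15. *Ezh1* without *Ezh2* was seen in 2 autopod and 6 zeugopod cells, and *Ezh2* without *Ezh1* in 55 and 64. *Rnf2* and *Ring1* were both found in 1 autopod cell and 5 zeugopod cells, with products of 2.94 and 5.22. At 1 read, *Ezh2* and *Ezh1* shared 10 autopod and 19 zeugopod cells, with products of 10.2 and 17.6. *Rnf2* and *Ring1* then shared 2 autopod cells against a product of 4.97, with 0 of the 59 cells of NXT0072 against 3.92, and 9 zeugopod cells against 7.12. For *Ezh2* and *Ezh1* the counts were thus close to the products at 1 read in both tissues, whereas *Rnf2* and *Ring1* shared fewer autopod cells than the product. These differences are of a few cells and were not tested.

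The 36 pairs of members showed weak correlations given genes detected. They ranged from -0.34 to 0.28 with a median of -0.01 in the autopod, and from -0.22 to 0.23 with a median of 0.02 in the zeugopod. Past 0.2, there were 2 pairs upward and 2 downward in the autopod, and 1 and 1 in the zeugopod. No share over pairs of other genes was taken, so these counts do not set the members apart. The pair at both extremes was *Eed* and *Jarid2*, with -0.34 in the autopod and 0.23 in the zeugopod (-0.29 and 0.24 with ranks centred within runs). *Suz12* and *Ezh2*, which act in the same complex, had 0.17 and 0.14.

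Proliferation was followed with *Mki67*, *Top2a*, *Ccnb1* and *Cdk1*, genes of dividing cells, 3 or more of which had at least 5 reads in 18 autopod and 23 zeugopod cells. In the zeugopod, *Ezh2* was found in 22 of these 23 cells (95.7%, 78.1 to 99.9%) and in 50 of the other 100 (50%, 39.8 to 60.2%). The cells with the markers also had more genes detected, with medians of 5053 and 3900. After thinning to 500000 reads, *Ezh2* was still found in 21 of 23 (91.3%) and 40 of 96 (41.7%). In NXT0142 it was in 14 of 14 and 22 of 44 cells, and in NXT0143 in 8 of 9 and 28 of 56. The partial rank correlation of *Ezh2* with the number of markers, given genes detected, was 0.23 over the zeugopod cells and 0.22 and 0.23 in its runs, a level of 0.2 being reached by 2.14% of genes upward and 2.60% downward. It was the only member past 0.2 in this tissue, ahead of *Cbx2* (0.18) and *Ezh1* (0.17).

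In the autopod, the relation of *Ezh2* to these markers was weaker. It was found in 16 of 18 cells with 3 or more markers (88.9%, 65.3 to 98.6%) and in 40 of the other 58 (69%, 55.5 to 80.5%), and its partial correlation was 0.06. *Suz12* (0.27) and *Cbx2* (0.24) were past 0.2, and *Jarid2* was at -0.24. Here 15.6% of all genes were at or above 0.2 and 6.97% at or below -0.2, so that such values were common. With ranks centred within runs they were 0.20, 0.17 and -0.07. *Cbx2* was found in 44.4% (21.5 to 69.2%) of autopod cells with 3 or more markers and in 17.2% (8.59 to 29.4%) of the others, and in 34.8% (16.4 to 57.3%) and 17% (10.2 to 25.8%) of zeugopod cells. *Bmi1* was in 0 of the 23 zeugopod cells with the markers (interval up to 14.8%) and in 8 of the other 100 (3.52 to 15.2%). Whether the relation of *Ezh2* to the markers differs between the tissues was not tested.

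**Figure D5:**
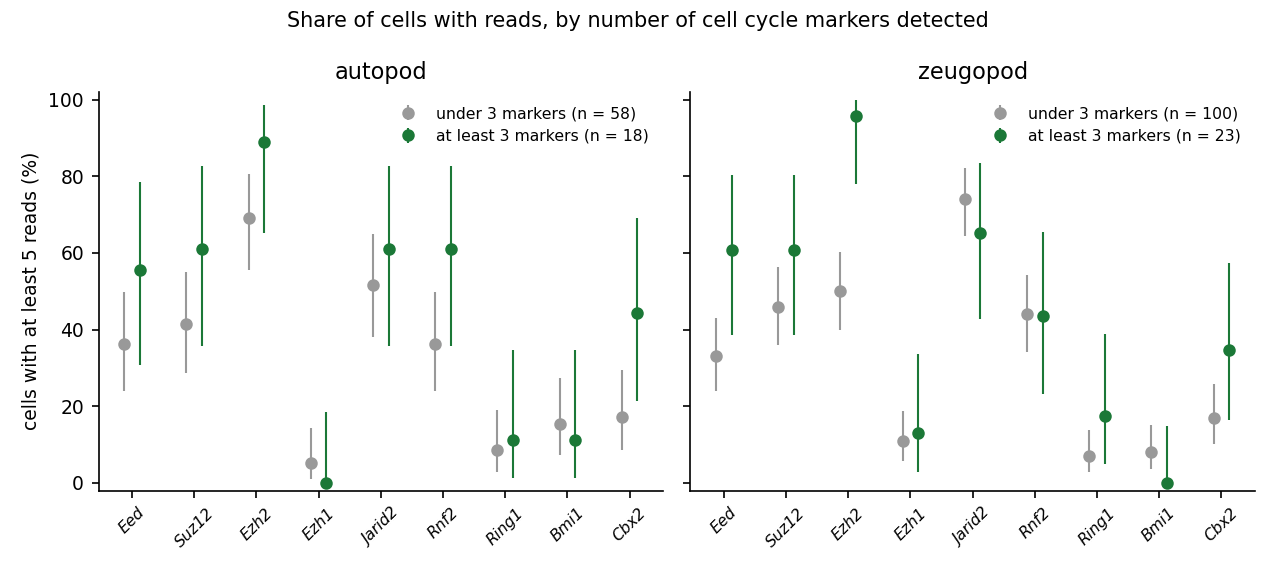
Share of cells with at least 5 reads of each gene in cells with 3 or more of 4 cell cycle markers (green) and in the other cells (grey), with exact binomial 95% intervals. For *Ezh2* in the zeugopod, the share was 95.7% against 50%, with intervals that did not overlap, and for the other genes the intervals of both classes overlapped.

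Among 3438 genes with at least 5 reads in 25% of the cells of each tissue, those most like *Ezh2* by the lower of its partial rank correlations in both tissues were *Actb* (0.40 in the autopod and 0.24 in the zeugopod), *Mcm5*, a subunit of the replicative helicase (0.27 and 0.23), and *Ewsr1* (0.23 and 0.26). With ranks centred within runs the values were 0.41 and 0.24, 0.28 and 0.24, and 0.23 and 0.26. Since these genes were chosen as the highest in the same cells, this is no separate support. For *Jarid2* they were *Gsk3b* (0.30 and 0.31), *Kdm6b*, which removes the mark that PRC2 sets (0.25 and 0.27), and *Eprs* (0.35 and 0.24). With ranks centred within runs, *Kdm6b* came to 0.09 and 0.21, so that its likeness to *Jarid2* in the autopod was smaller within runs.

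The other genes of these complexes were read from a list of 34, of which 20 passed the filter of 5 reads in 25% of the cells of either tissue. Over all cells, 2 of the 20 were higher in the autopod and 3 lower by at least 1, against 6.06% and 13.4% of all 4898 genes, and their median was 0.25 against -0.12. Within NXT0143, 3 were higher and 1 lower, against 18.4% and 9.21% of all genes, and the medians were 0.32 and 0.18. Between NXT0072 and NXT0142, 3 were higher and 5 lower, against 6.64% and 24.3%, and the medians were 0.05 and -0.34. The PRC1 list had a median of 0.68 over all cells, with 6 of its 7 filtered genes above 0, but of 0.19 within NXT0143, next to that of all genes, with 3 of the 7 below 0. Between NXT0072 and NXT0142 its median was 0.81, with 6 of the 7 above 0. No share of all genes above 0 was taken. The 6 trithorax genes and histone demethylases turned, with a median of -0.38 over all cells, 0.65 within NXT0143 and -0.86 between NXT0072 and NXT0142. In the same order, the 4 PRC2 partners had medians of -0.42, 0.04 and -0.95. The deubiquitinase list of *Bap1*, *Asxl1* and *Asxl2* had 0.71, 0.35 and 0.10. *Rbbp7*, a histone chaperone of PRC2 and other complexes, was the one gene that passed 1 in the same direction in all comparisons, with -1.15 over all cells, -1.27 within NXT0143 and -1.17 between NXT0072 and NXT0142. It was found in 47.4% of autopod and 67.5% of zeugopod cells. Taken singly, these comparisons had 13.4%, 9.21% and 24.3% of all 4898 genes lower by at least 1. No share over all genes was taken for passing 1 in all 3, and the first comparison holds the cells of the other 2. *Kdm6b* and *Kmt2d*, a methyltransferase of the trithorax group chosen after its values were seen, turned in the same direction as *Jarid2*. They had 0.34 and 1.24 within NXT0143 and -2.42 and -3.48 between NXT0072 and NXT0142. The median of all genes turned as well (0.18 and -0.34), with *Kdm6b* near it within NXT0143. Others of the list turned likewise, such as *Kmt2c* (0.96 and -1.66) and *Mtf2* (0.44 and -0.73), or the opposite way, such as *Phc1* (-0.24 and 0.81).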

How the data were processed

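Single cells of the autopod and zeugopod were analysed from 2 tables. The authors mapped reads uniquely to mm10 with Bowtie2 in local mode and deposited raw counts per gene (GRCm38). They also deposited spike-in normalized values (a signal per kilobase) for 199 of 225 cells. Size factors were centred by batch of origin, which need not be the run. Once divided by the floor of the gene, 99.96% of the values are whole numbers (tolerance 0.001). With the stated minimum of 2000 genes and 250 reads, 198 libraries pass here, and 2 retained cells have at most 2000 genes. The spike-in rows (92) were not used: within sets of cells given by tissue and run, the rank correlation of their total with the scaling of the normalized values lay between -0.15 and 0.22, where division by spike-in factors would give values near -1. The scaling behind the normalized values thus did not follow the spike-in totals of the same column names and could not be checked. The reason was not tested. Doublets were not called, and no cells had identical counts.

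A gene was called detected at 5 reads. Thinning drew 500000 reads per cell without replacement (seed 42). Partial rank correlations were computed on ranks after regression on the number of genes with at least 1 read. Differences used a pseudocount of 1. The members and lists were chosen with earlier results of these data known. All 9 members were named, with partners past 1 (log2) in all 3 tissue comparisons and the 3 genes most like *Ezh2* and *Jarid2*. Scripts (Python 3.11.15, numpy 2.4.6, pandas 2.3.3, scipy 1.17.1) were tested on simulated data. The labels disagree on how many embryos were pooled. Gene positions are those of GENCODE (GRCm38), and of the 4 blood markers 1 was in the table.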

Additional observations from a re-analysis of the deposited data

Results flagged for a closer look

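*Jarid2* differed between autopod and zeugopod cells by 2.70 (log2) within NXT0143 and by -3.46 between the autopod cells of NXT0072 and the zeugopod cells of NXT0142. It is listed because the comparisons have opposite signs and both exceed 1. The difference between them was not tested, since each set of cells is 1 sample, and the run and the tissue cannot be told apart for NXT0072 and NXT0142.

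The 26 libraries outside of the retained cells, which had between 17 and 2926028 reads, contained some reads of the members. At least 5 reads of *Ezh2* were found in 2 of them, of *Jarid2* in 2, of *Rnf2* in 3 and of *Cbx2* in 1. None reached 5 reads of *Eed*, *Suz12*, *Ezh1*, *Ring1* or *Bmi1*.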

How the results depend on the processing

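Of 608 values recomputed under an alternative, 479 moved by less than the limit set for them, 2 changed sign and the others moved further. *Jarid2* was 2.70 (log2) higher in the autopod when only cells of NXT0143 were used, and its correlation with the cell cycle markers in autopod cells was 0.06 in NXT0143 alone. The median share over the 9 genes in autopod cells came to 26.4% after thinning (at least 5 reads) and 23.5% in NXT0143. Their median CPM in the autopod was 73 as a mean over cells, 14.7 in NXT0143 and 52.6 without the cell with most reads of each gene, an alternative chosen after seeing the data, as were the CPM scale for *Jarid2* between runs and the comparison of runs within a tissue. Over all genes of the normalized table, 2.83% were higher and 6.26% lower by at least 1. The median correlation with the *Hoxd* gene number in autopod cells was 0.19 without genes detected and 0.07 in thinned cells, and that with the cell cycle markers in the zeugopod 0.16 without genes detected. Cells with both *Ezh2* and *Ezh1* numbered 10 in the autopod and 19 in the zeugopod at 1 read, and 0 in the autopod at 10 reads or thinned. Those with both *Rnf2* and *Ring1* numbered 2 and 9 at 1 read, and 2 in thinned zeugopod cells. Of the 20 other Polycomb and trithorax genes past the filter, 3 were higher and 1 lower by at least 1 within NXT0143. The shares of all 4898 genes were 18.4% and 9.21%. Between NXT0072 and NXT0142, 3 were higher and 5 lower, against 6.64% and 24.3% of all genes. The causes were not tested. No paired analysis was possible because the replicate numbers only name cells of 1 sample per tissue.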
